A study of Mus musculus with 180 samples.

Results

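The Tal1 Gata2 progenitors are embryoid body cells that carried at least 2 unique molecular identifiers (UMIs) of Tal1 and at least 1 of Gata2. They also lay under limits set on Hbb-bh1 and on endothelial genes, below which such transcripts could remain. A cell was kept when it had at least 1000 detected genes and at most 15% mitochondrial UMIs. Cells with 20 or more Hbb-bh1 UMIs were left out, and so were cells with 2 or more UMIs in at least 3 of the endothelial genes Cdh5, Pecam1, Icam2, Esam and Plvap. Of 20134 cell barcodes 17789 were kept, and 1550 of these (8.71%) were progenitors. The Tal1 and Gata2 limits alone were passed by 2216 cells, of which 167 were over the Hbb-bh1 limit, 505 over the endothelial limit and 6 over both. Measured transcripts chose these cells, so their levels of the 8 genes of the rule are a description, and levels in progenitors against other cells are given without a test.

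The cells came from mouse embryonic stem cells of the strains C57BL/6J (B6) and DBA/2J (D2), which the sample labels give as a mixture. The stem cells passed through an epiblast-like state for 48 h, were aggregated at 750 cells per body for 48 h, and were rotated for another 48 h in embryoid body medium. The labels name no agent or engineered allele. Cells were labelled with lipid-anchored barcodes (MULTI-seq) and run as 1 droplet library. The barcode table has 12 columns: B1, B2 and B3, then D1, D2, D31, D32, D331, D332 and D333, then C1 and CB. The labels do not say which strain a column holds, and they do not say whether D31 and D32, or D331 to D333, were separate cultures, so columns are grouped here by the first letter of their names. A cell was assigned to a column when its largest barcode count was at least 2 times the second, which placed 15568 kept cells and 1399 progenitors.

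As background, blood and vessel cells of the early embryo arise from mesoderm cells that carry the VEGF receptor Kdr, and a common progenitor of both is called the haemangioblast. Etv2, an ETS factor, switches on the vascular and blood programme in this mesoderm, and Tal1, a basic helix-loop-helix factor, works with Gata2, Lmo2 and Ldb1 in a complex that commits cells to blood. Gata1 later takes the place of Gata2 in red cells, where it drives haem and globin genes with Klf1. Tal1 complexes bind the GATA motif beside the E-box, a motif with the letters CANNTG.

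Gfi1b is a transcriptional repressor that acts in blood development, and its level went up with that of Gata1 among the progenitors. The upstream sequences of Gfi1b and of the 2 genes that define the cells show where the GATA motif and the E-box lie. Each is the 250 bases upstream of a RefSeq start site on GRCm38.p6, written 5′ to 3′ on the strand of the gene, with matches to the E-box and to the GATA motif (searched as GATAA on both strands) in capitals. Tal1 lies at chr4:115056176-115056425 on the plus strand, Gata2 at chr6:88193641-88193890 on the plus strand, and Gfi1b at chr2:28621983-28622232 on the minus strand.
Tal1: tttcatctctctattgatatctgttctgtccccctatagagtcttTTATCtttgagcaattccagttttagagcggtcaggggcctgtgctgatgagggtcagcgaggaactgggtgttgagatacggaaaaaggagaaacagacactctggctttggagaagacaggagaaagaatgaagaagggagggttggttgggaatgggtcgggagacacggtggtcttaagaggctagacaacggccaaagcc
Gata2: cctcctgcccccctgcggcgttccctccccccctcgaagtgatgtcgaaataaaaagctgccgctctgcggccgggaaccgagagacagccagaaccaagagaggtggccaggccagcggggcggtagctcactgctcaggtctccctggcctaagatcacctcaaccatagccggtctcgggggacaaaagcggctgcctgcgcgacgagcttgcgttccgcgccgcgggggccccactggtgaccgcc
Gfi1b: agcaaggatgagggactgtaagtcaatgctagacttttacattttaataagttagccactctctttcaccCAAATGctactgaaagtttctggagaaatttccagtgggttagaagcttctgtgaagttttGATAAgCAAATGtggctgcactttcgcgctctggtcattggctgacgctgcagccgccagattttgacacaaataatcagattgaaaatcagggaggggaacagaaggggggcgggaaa
The Tal1 window held 1 GATA motif, on the opposite strand, and no E-box, and the Gata2 window held neither. Both genes have a second RefSeq start site, and those windows, not printed here, held neither motif. In Gfi1b, the GATA motif and 1 of the 2 E-boxes stood next to each other with no overlap. Over all 32851 RefSeq windows of this length, 22.6% held the GATA motif and 66.2% an E-box. Among genes higher in progenitors, as defined below, 18.4% of 185 windows held the GATA motif, against 13.6% of 889 for lower genes and 13.6% of 6303 for the rest. An E-box was in 59.5%, 57.6% and 53.3% of them. The matches describe letters in these windows and not binding.

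Progenitors were deeper than the other kept cells, with a median of 46947 UMIs against 37013, and the rule's demand for Tal1 and Gata2 UMIs favours deep cells. The 151 progenitors with no assigned column (9.74%, against 12.7% of other kept cells) had a median of 71427 UMIs. They enter no value by column, and the part of mixed droplets in the other values was not tested. The median barcode count per kept cell was 354 to 494 in the B columns, 2333 to 3660 in the D columns and 1966 to 2142 in the C columns. Tpm3-rs7 is a gene with near-identical copies that was at least 8 times higher in D2 than in B6 stem cells. Over all kept cells it read 8.4 to 10.7 UMIs per 1000000 (CPM) in the B columns. It read 218 to 242 in the D columns and 130 to 137 in the C columns. In progenitors alone it read 10.0, 34.3 and 12.9 CPM in B1, B2 and B3, and 188 to 214 in D. It passed 1 per 10000 UMIs in 1 of 17, 1 of 13 and 1 of 27 of these B progenitors. The part of such cells in the D against B values was not tested. Another of the genes picked in the same way, Mmrn2, ran against this order, at 7.9 to 9.9 CPM in B and 2.7 to 4.2 in D, so the letters are kept as names.

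Most transcription factors listed for the haemangioblast, and the receptor Kdr, were higher in progenitors than in the mixture of other kept cells. A gene was called higher or lower than in other kept cells when its mean difference over the 12 columns passed 1.5-fold and had the same sign in all 12, on a log2(CPM + 1) scale, among genes with at least 5 CPM in the higher population. Of 9344 such genes outside the rule 2.59% were higher and 12.3% were lower. Of the 20 genes listed for the haemangioblast core, 16 outside the rule could be described, and 11 were higher and none lower. Of 20 blood transcription factors 11 were higher and 1, Meis1, was lower.

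Kdr, the receptor for VEGF, was at 112, 85.9 and 161 CPM in the progenitors of B1, B2 and B3, at 138 and 124.1 in C1 and CB, and at 116.9 to 166 with a median of 132 in the 7 D columns. In other kept cells of the same columns it lay between 47.5 and 82.7 CPM, so every progenitor value was above every other value. Etv2 was at 77.4, 91.6 and 87.9 CPM in B, 72.2 and 72.7 in C, and 63.1 to 101 in D with a median of 73.7, against 14.5 to 37.5 in other cells. The ranges of Etv2 did not overlap either, and its fold over the 12 columns was 3.13, against 2.13 for Kdr. These 2 genes were not in the rule, and with Tal1 and Gata2 they are the markers given for the cells.

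Lmo2, the adaptor that joins Tal1 to GATA factors, was at 193, 219 and 192 CPM in B, 115 and 155 in C and 140 to 206 in D, against 30.6 to 80.6 in other cells. Its fold was 3.57. Lyl1, a close relative of Tal1, was 4.15-fold higher, Cbfa2t3, a corepressor found in Tal1 complexes, 4.21-fold, Hhex, a homeobox factor of early blood and vessel cells, 4.73-fold, the ETS factor Fli1 3.38-fold and the SOX factor Sox7 2.80-fold. Egfl7, a secreted vascular protein, and Rhoj, an endothelial GTPase, were 2.17-fold and 2.35-fold higher. The members that were neither higher nor lower included Cd34 at 2.56 CPM, Tek at 8.52, Eng at 8.37, Rasip1 at 22.2 and Smad6 at 40.2, which were at 7.53, 8.12, 15.5, 23.3 and 38.4 in other cells.

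Factors of blood cells beyond the core were also higher. Myb, which maintains blood progenitors, was at 20.4 CPM in all progenitors against 1.99 in other cells, and was 8.53-fold higher. Gfi1b (21 against 2.45 CPM, 5.19-fold), its relative Gfi1 (7.71 against 0.719, 5.09-fold), Nfe2 (24.8 against 4.74, 4.80-fold), Ikzf1 (7.87 against 1.18, 4.14-fold), Gata1 (26.8 against 5.78, 3.76-fold) and the GATA cofactor Zfpm1 (2.57-fold) were higher as well. Runx1, which is needed for definitive blood, was 2.18-fold higher on average but only in 11 of 12 columns: in B3 it read 44.7 CPM in progenitors and 63.0 in other cells. The marker of mature white cells Ptprc had 3 UMIs in all progenitors together, and Spi1, the master factor of myeloid cells, stood at 1.53 CPM. Of 7 surface and signalling genes described, Itga2b (CD41) and Epor were higher, at 3.29-fold and 2.23-fold, and Cd44 and Cxcr4 were lower.

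**Figure D1:**
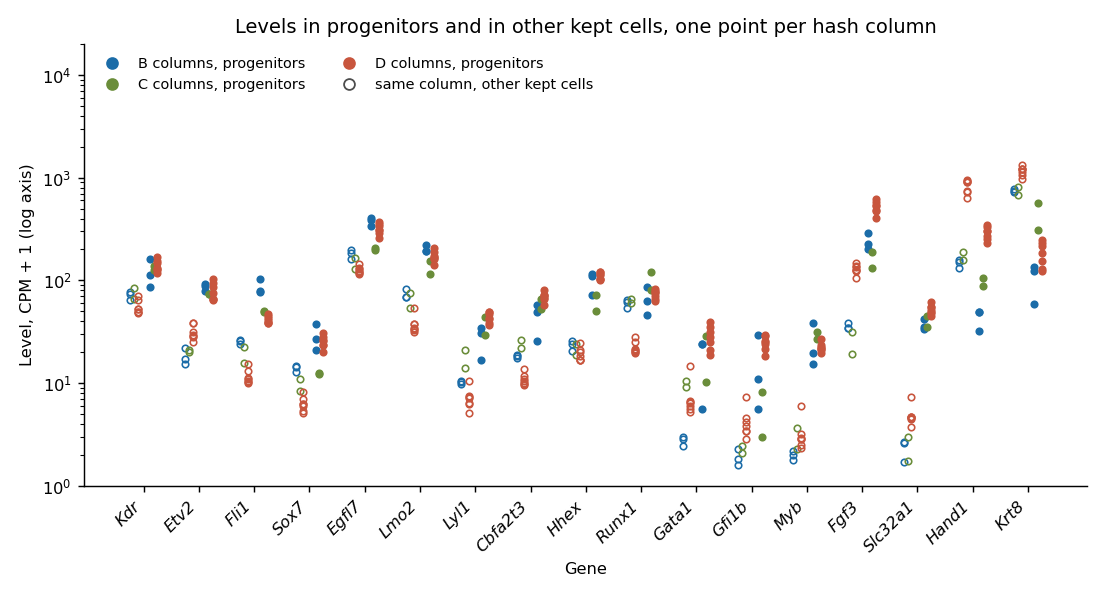
Levels of 17 genes as CPM + 1 on a log axis, with 1 point per hash column; filled points are progenitors, open points the other kept cells of the same column, and colours mark B, C and D columns. Filled points lie above open points for Kdr, Etv2, Lmo2 and Myb, and below those of the same column for Hand1 and Krt8.

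Detection cell by cell was read after each cell had been thinned to 20000 UMIs, which left out 72 shallower progenitors. A Kdr UMI was found in 81.5% of 1478 progenitors (95% exact interval 79.5 to 83.5%; unthinned 92.5%), Lmo2 in 80.8%, Etv2 in 56.7%, Fli1 in 51.2%, Lyl1 in 45%, Myb in 28%, Gfi1b in 24.1% and Gata1 in 21.9%. In 1270 thinned endoderm-gated cells, which had 2 or more UMIs in at least 3 of Epcam, Cldn6, Foxa2, Trh and Spink1 and should lack these genes, the shares were 14.3%, 18%, 10.5%, 2.91%, 1.18%, 0.866%, 0.236% and 1.42%. Unthinned median depths were 46947 and 37627 UMIs in the progenitors and the endoderm-gated cells. Hba-x, an embryonic globin, was in 21% of progenitors and 18.4% of endoderm-gated cells, which is close to background. The cells most like the progenitors shared many of these genes. In 1474 thinned endothelial-gated cells, those at or above the rule's endothelial limit, Kdr (96.5%), Fli1 (71.8%) and Lyl1 (56.1%) were found more often than in progenitors. Etv2 (39%), Myb (6.24%), Gfi1b (2.78%) and Gata1 (2.44%) were found less often there. Lmo2 was at 78.9% there, and its interval (76.7 to 81.0%) overlapped that of progenitors (78.7 to 82.8%). In 324 thinned Hbb-bh1-gated cells, those with 20 or more Hbb-bh1 UMIs, Lmo2 (88.3%), Gfi1b (48.8%) and Gata1 (79.9%) were more frequent than in progenitors. Kdr (31.8%), Etv2 (29.9%) and Fli1 (32.7%) were less frequent. Lyl1 was at 39.8% (34.4 to 45.4%) and Myb at 24.1% (19.5 to 29.1%). These intervals overlapped those of progenitors, 42.4 to 47.6% for Lyl1 and 25.7 to 30.4% for Myb. Intervals cover counting error only.

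Vessel genes were split. Of 16 endothelial genes outside the rule Kdr, Egfl7 and Sox7 were higher, and Flt1 (33.1 against 56.7 CPM), Sox17 (8.80 against 27.2) and Cldn5 (0.733 against 5.96) were lower. Endothelial-gated cells, the 1722 cells at or above the rule's endothelial limit, had 256 CPM of Kdr, 671 of Egfl7 and 48.5 of Sox7, all above the progenitors at 135, 302 and 22.5. Fewer Tal1 and Gata2 transcripts were in those cells, at 65.4 and 25.2 CPM against 158 and 76.7. Among VEGF pathway genes the receptors Flt1, Nrp1 and Nrp2 and the ligands Vegfc and Pgf were lower, and 4 of 16 were higher (Kdr, Ets2, Fli1 and Etv2) and 7 lower in all.

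Red cell genes were also split. Of 16 primitive erythroid genes outside the rule 6 were higher, namely Gata1, Epor, Nfe2, Tfrc, the transferrin receptor (74.8 against 41.3 CPM), Smim1 and Car2, a carbonic anhydrase (191 against 76.8). The 3 that were lower, Hba-x, Hba-a1 and Mgst3, were at 9756, 3242 and 91.4 CPM in the 364 Hbb-bh1-gated cells that the rule leaves out. Those cells had 148 CPM of Gata1, 34.2 of Kdr and 3.59 of Sox7. Of 16 haem and iron genes 4 were higher (Abcb10, Tfrc, Fech and Cpox) and none lower.

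Genes of other mesoderm were lower. In the lateral and extraembryonic mesoderm list 16 of 22 genes were lower and none higher. Hand1, a factor of that mesoderm, was at 31.5, 48.7 and 47.7 CPM in B, 105 and 88.2 in C and 232 to 344 in D, against 130 to 155, 158 to 187 and 634 to 939 in other cells of those columns. Within every column the progenitors were the lower population, at 0.365 of the other cells on average. Bmp4 (76.9 against 174 CPM) and Foxf1 (19.8 against 61.3) were lower too, as were 6 of 11 cardiac, 8 of 11 mesenchymal, 8 of 10 definitive endoderm and 7 of 16 BMP pathway genes, among them the BMP targets Id1 and Id2. Of 12 primitive streak genes 4 were lower and none higher, while only 1 of 20 cell cycle genes, the inhibitor Cdkn1c, was lower and none was higher.

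Gata2 and Tal1 also occur together in some spinal interneurons, and Gata2 in trophoblast. Slc32a1, the vesicular transporter for GABA and glycine, was 12.9-fold higher, at 46.8 against 3.03 CPM. It was at 41.5, 34.3 and 32.6 CPM in the B progenitors, 44.4 and 34.0 in C, and 44.1 to 61.0 in D, with 0.701 to 6.37 in other cells. Hbb-bh1-gated cells carried it at 42.2 CPM. Among the other interneuron genes Gad1 had 34 UMIs over all progenitors and Foxn4 had none. Of the 5 trophoblast genes described Krt8, Krt18 and Plet1 were lower, Gata3 was at 16.5 against 21.4 CPM, and Elf5 and Prl2c2 had no UMI.

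**Figure D2:**
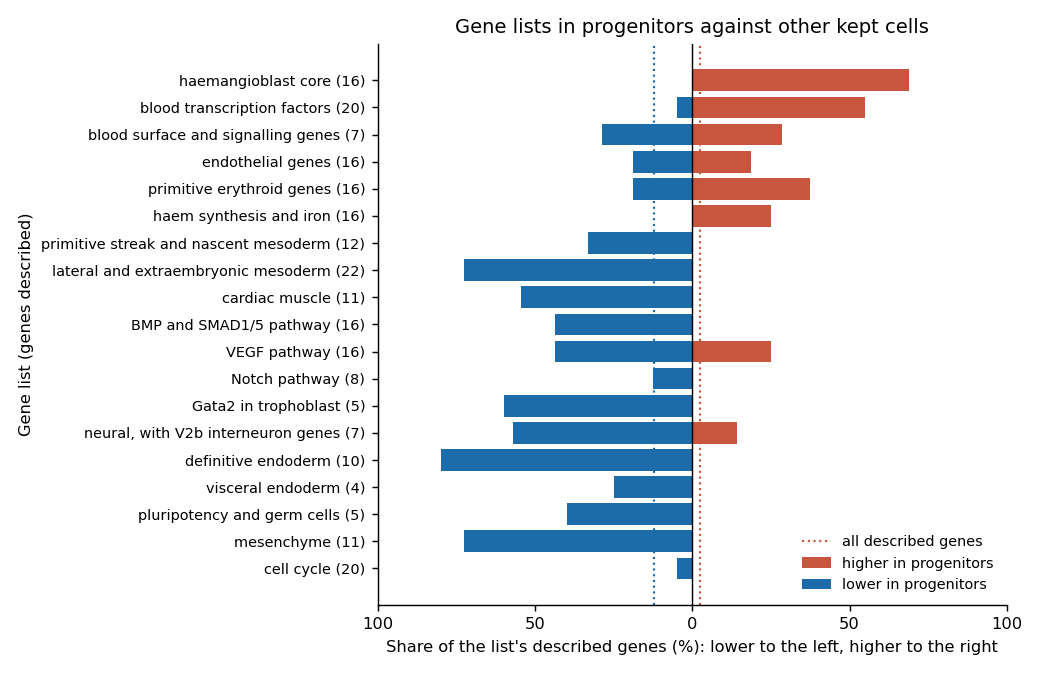
Share of each list's described genes, outside the rule, that were higher (right) or lower (left) in progenitors than in other kept cells, with the number described in brackets; dotted lines give the shares over all 9344 genes. The haemangioblast core and blood transcription factors reach furthest to the right, and the definitive endoderm, mesenchyme and lateral mesoderm lists furthest to the left.

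By a rule of size, among genes of at least 50 CPM, the 20 with the highest ratio in progenitors began with Slc1a3, a glutamate transporter (51.8 against 7.93 CPM), the growth factor Fgf3 (463 against 91.6) and Hhex. Fgf3 was at 225, 202 and 288 CPM in B, 132 and 187 in C and 407 to 613 in D, and at 18.1 to 147 in other cells. Further down stood Prkar2b, Cbfa2t3, Rnd2, Rpp25, Nrgn, the Wnt amplifier Rspo3 (377 against 102), Tnfaip2, Hoxb2 (232 against 68.3), Phf6, Lmo2, Gadd45g, Fam212a, Sapcd1, Slc39a8, Etv2, the thrombin receptor F2r (229 against 82.3) and Prdx3. Hbb-bh1-gated cells had more Prkar2b (184 against 153 CPM in progenitors), Lmo2 (211 against 164), Fam212a (145 against 120) and Slc39a8 (128 against 68.0). They also had more Prdx3 (241 against 197) and Cbfa2t3 (65.4 against 64.1). The rest of the 20 were lower there, with Fgf3 at 314 and Slc1a3 at 38.8 CPM. In endothelial-gated cells only Nrgn of the 20 was higher (61.9 against 59.6). The 10 lowest, beside Hba-x and Hba-a1, were Cdkn1c, Phlda2, Tagln, Hspb1, Spin2c, Pmp22, Acta2 and Tgfb2.

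At the edges of the rule the values changed by degree. The 156 progenitors with 2 Tal1 UMIs had 141 CPM of Kdr, 64.8 of Etv2 and 90.8 of Lmo2, against 81.9, 38.9 and 47.3 in 312 cells with 1 Tal1 UMI. At the Gata2 limit, 390 progenitors with 1 UMI had 147 CPM of Kdr and 161 of Lmo2, and 471 cells with none had 123.95 and 151. The 60 progenitors with 10 to 19 Hbb-bh1 UMIs had 83.3 CPM of Gata1 and 74.1 of Kdr, against 129 and 53.1 in 42 cells with 20 to 40. The 202 progenitors positive for 2 endothelial genes had 33.4 CPM of Cdh5, and 150 cells positive for 3 had 61.7.

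Among themselves the progenitors ran from Kdr-rich to Gata1-rich cells. When they were set in order of Gata1 UMIs, 1079 cells had none, 158 had 1, 123 had 2 to 3 and 190 had 4 or more, with median depths of 46039 to 49257 UMIs. Kdr went over these classes from 160 through 129 and 78.1 to 50.3 CPM, and Etv2 from 89.9 through 52.8 and 43.5 to 35.5. The receptor Aplnr went from 69.6 to 21.7, Sox7 from 28.7 to 6.00 and Hand1 from 339 to 100 CPM. In the other direction Runx1 went from 53.5 to 124.2 CPM, Gfi1b from 9.25 to 70.9, Klf1 from 2.07 to 35.2, the erythropoietin receptor Epor from 6.67 to 44.5 and Car2 from 115 to 469. Lmo2 went from 134 to 260 CPM, and Hhex (100 and 99.0) and Lyl1 (39.5 and 39.7) were alike at both ends.

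The order held column by column. In the 8 columns that could be read (the 7 D columns and CB), cells with 2 or more Gata1 UMIs had less Kdr than cells with none in 8 of 8, at 0.333 of their level on average, and less Sox7 (0.229), Hand1 (0.240), Aplnr (0.359) and Egfl7 (0.505) in 8 of 8. Etv2 was lower in 7 of 8, at 0.426. Klf1 (8.71-fold), Gfi1b (5.31-fold), Epor (4.98-fold), Nfe2 (3.94-fold), Car2 (3.51-fold), Itga2b (2.31-fold), Runx1 (2.27-fold) and Lmo2 (1.79-fold) were higher in 8 of 8. Fgf3, which was high in progenitors as a whole, moved little (1.2-fold). In thinned cells Kdr was found in 63.3% of those with a Gata1 UMI and 86.7% of those without, and 205 of the 1478 thinned cells had a UMI of both.

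**Figure D3:**
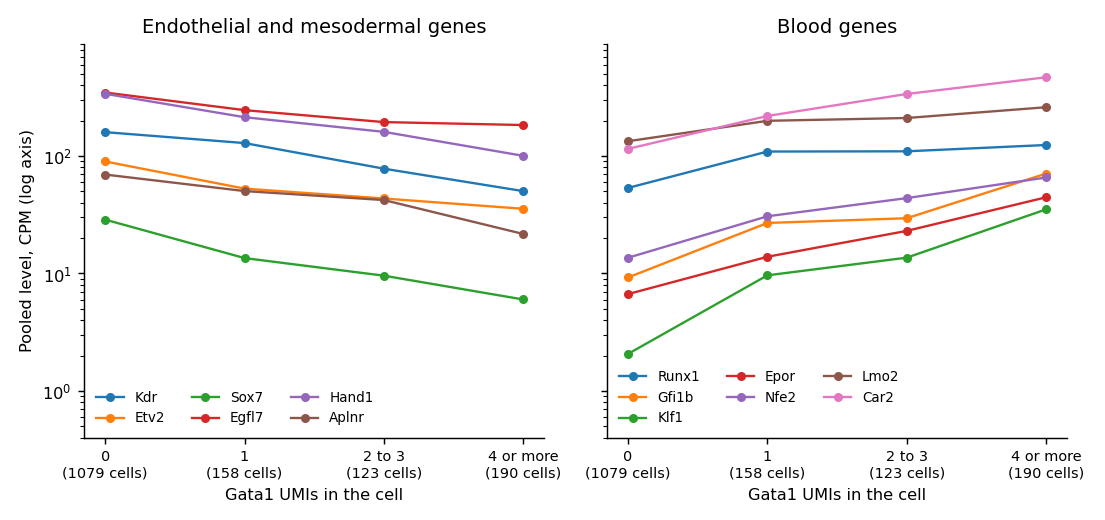
Pooled levels in CPM on a log axis for progenitors grouped by their Gata1 UMIs, with vessel and mesoderm genes in the left panel and blood genes in the right. Kdr runs from 160 down to 50.3 CPM and Klf1 from 2.07 up to 35.2 CPM across the 4 classes.

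Over the 1550 cells of this 1 library the genes most like Gata1 included Cited4 (Pearson r = 0.58 in log2 counts per 10000 + 1), Epor, Gfi1b, Car2, Bcas2, Nfe2, Mns1 and Tspan33. Those most unlike it were Vim (r = -0.46), Rbpms, Serpinh1, Marcks, Mest, Igfbp4, Kdr (r = -0.39), Sparc, Fbn2 and Limd2. For Kdr the nearest were Aplnr (r = 0.50), Fbn2, Igfbp4, Col4a1, Cyp26a1, Ramp2, Cd40, Ets1, Col4a2 and Notch1, and the furthest included H2afz (r = -0.44), Bcas2, Car2, Cited2, Gata1, Cited4, Nfe2, Hdgf and Runx1. Cells of a library are not replicates, and these values are a description.

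Progenitor shares were higher in the D columns than in the B columns. The share of kept cells was 1.54% in B1 (17 cells), 1.57% in B2 (13) and 2.43% in B3 (27), and 15.2% in D1, 9.30% in D2, 14% in D31, 9.34% in D32, 13% in D331, 11.4% in D332 and 13.1% in D333, on 127 to 226 cells each. C1 and CB lay between, at 3.48% (36 cells) and 5.35% (77). Every D column was above every C column, and every C column above every B column. The mean was 1.85% ± 0.503 (SD, n = 3) in B and 12.2% ± 2.27 (SD, n = 7) in D, a difference of 10.3 points or 6.59-fold.

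That difference had p = 0.0167 in a two-sided exact permutation test over columns, the smallest this design can give, and an adjusted p of 0.05 over 3 pairs, which is not under the threshold of 0.05. D against C had p = 0.0556 (adjusted 0.0833) and C against B p = 0.2, each the smallest exact permutation p that the numbers of columns allow. Summing D31 with D32 and D331 to D333, whose separateness the labels do not give, left 10.3 points and an exact permutation p of 0.0571. The endothelial-gated cells, which the rule leaves out, ran the other way, at 17.9 to 20.7% in B and 3.26 to 6.45% in D, with 15.5 to 22.6% in C. Barcode counts were lower in B than in D, and their part in the shares was not tested. With cells thinned before the rule was applied, the means were 0.717% and 5.66%.

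**Figure D4:**
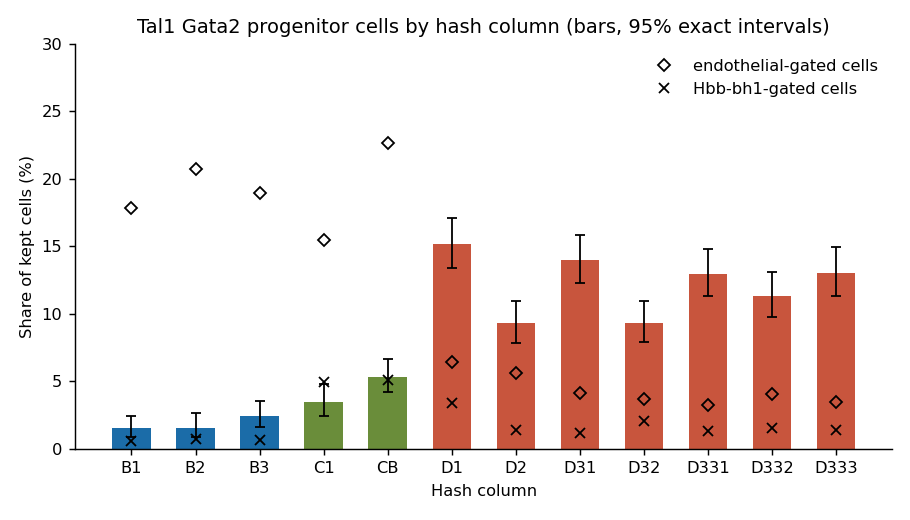
Bars give the progenitor share of kept cells in each of the 12 hash columns, in percent, with 95% exact binomial intervals that cover counting error; open diamonds are endothelial-gated cells and crosses Hbb-bh1-gated cells. The 7 D columns sit between 9.30% and 15.2% and the 3 B columns between 1.54% and 2.43%.

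The share of progenitors with 2 or more Gata1 UMIs was 17.6%, 15.4% and 7.41% in B, 14.8 to 25% in D, 5.56% in C1 and 22.1% in CB. B and D overlapped. With 13 to 27 progenitors in a B column, 2 or 3 cells made up each of the B values.

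Within the progenitors, the lateral mesoderm factors Hand1, Hand2 and Foxf1 were higher and Fli1 and Cd93 lower in D columns than in B columns. Kdr, Etv2 and Lmo2 were not called. In other kept cells Hand1, Hand2, Foxf1, Fli1 and Cd93 differed in the same direction as in the progenitors. UMIs were summed over progenitors in each column, 698032 to 1320323 UMIs in a B column and 5897293 to 10635517 in a D column, and compared by edgeR's quasi-likelihood test with Benjamini-Hochberg adjustment. Of 11102 genes 1709 (15.4%) passed at an adjusted p under 0.05, of which 782 (7.04%) were higher and 927 (8.35%) lower in D. In 2463 genes (22.2%) the 3 B and 7 D values did not overlap. The count fell to 923 without B3 and to 739 when columns of at least 20 progenitors were required, which leaves B3 as the only B column.

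Most of the factors that mark the cells were not called. Kdr differed by 0.14 (log2 D minus B; adjusted p = 0.633, edgeR), Etv2 by -0.13 (adjusted p = 0.712), Lmo2 by -0.22 (0.186), Hhex by 0.12 (0.551), Runx1 by 0.27 (0.325), Gata1 by 0.96 (0.171) and Lyl1 by 0.62 (0.0626). Leaving out D31 brought Lmo2 past the threshold, at -0.28 with an adjusted p of 0.0436. Kdr and Etv2 overlapped between the letters in the values given above. Tal1 was at 130, 129 and 113 CPM in B and 163 to 177 in D, and Gata2 at 57.3, 44.4 and 56.8 against 68.3 to 94.9. The letters did not overlap in either gene, and as the rule chose the cells by them these levels have no test.

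Of 17 haemangioblast core genes outside the rule 2 rose and 5 fell in D. Fli1 was at 75.9, 102 and 78.0 CPM in B, 48.3 and 48.9 in C and 37.4 to 46.1 in D, so B and D did not overlap and C lay between. Its difference was -1.05 ± 0.12 (log2, SE; edgeR adjusted p = 1.22e-05). Rasip1 (-1.44), a regulator of vessel lumen formation, Tek (-1.43), the angiopoietin receptor, Eng (-1.12), a TGF-beta coreceptor, and Rhoj (-0.74) fell as well. The other cells of the D columns were also lower than those of B in each of these 5 genes, for example 10.6 against 24.3 CPM for Fli1. Cbfa2t3 (0.77) and the SMAD inhibitor Smad6 (0.75) rose. Without B3, Cbfa2t3, Smad6 and Eng were not called, at 0.38, 0.48 and -0.71 with adjusted p of 0.212, 0.234 and 0.371, without B2 Eng was not called (0.0697), and without B1 Tek was not called (0.055).

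A part of the vessel genes fell in D. Of 18 endothelial genes outside the rule 6 fell and none rose, and the other 12 did not pass: those that fell were Cd93 (-3.40), Sox18 (-1.96), Flt4 (-1.54), Tek, Ecscr (-1.35) and Eng. The median over these 18 was -0.37, against 0.01 over all genes tested. Cd93 was at 2.87, 7.15 and 6.06 CPM in B and at 0.155 to 0.796 in D. Other kept cells differed in the same direction, at 7.06 to 9.43 CPM in B and 0.767 to 1.42 in D. Of the genes that the rule capped, given without a test, Icam2 was at 50.1, 27.2 and 21.2 CPM in B and 3.95 to 8.65 in D, Cdh5 at 14.3 against 8.45 CPM and Pecam1 at 32.2 against 29.4. Without B3 Flt4 and Sox18 were not called, at -0.93 and -1.46 (adjusted p = 0.435 and 0.399), and Sox18 was also lost without B2 (0.108), D32 (0.0504), D331 (0.0533) or D332 (0.0554). When progenitors were held to fewer than 2 endothelial genes, Tek (-1.39, adjusted p = 0.0762), Eng (-0.90, 0.218), Flt4 (-0.52, 0.814) and Sox18 (-1.78, 0.320) were not called, Cd93 was too low to be tested, and Ecscr was called (-1.26, 0.02).

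Lateral mesoderm genes rose more often than they fell in D. Of 21 lateral and extraembryonic mesoderm genes 9 rose and 4 fell. Hand1, whose values stand above, rose by 2.74 ± 0.17 (log2, SE; edgeR adjusted p = 1.33e-08), with means of 42.6 CPM in B and 291 in D. Hand2 was at 10.0, 18.6 and 16.7 CPM in B, 59.6 and 53.6 in C and 56.3 to 67.3 in D, and rose by 1.98 (4.17e-07). C1 lay inside the D range and CB just under it. Foxf1 was at 1.43, 1.43 and 2.27 CPM in B, 10.6 and 4.98 in C and 12.4 to 26.9 in D. It rose by 3.44, Tbx20 by 1.96, Cdh11 by 1.54 and Tbx3 by 1.10. With at least 2 Gata2 UMIs required, Foxf1 (2.83, adjusted p = 0.332) and Tbx3 (0.44, 0.254) were not called. Bmp4, Spin2c and Msx2 rose by 1.92, 2.34 and 0.77; without B3 the first 2 were at 1.5 and 2.29 with adjusted p of 0.0642 and 0.0673, and Msx2 was lost without B1 (0.0802) and without B2 (0.113). Vim (-0.85), an intermediate filament of mesenchymal cells, Pmp22 (-1.04), Phlda2 (-1.48) and Twist1 (-0.78) fell, the last 2 not without B3 (-0.68 and -0.09, adjusted p = 0.517 and 0.821). Other kept cells differed in the same direction for Hand1, at 145 against 822 CPM. The same held for Hand2 (medians of 24.6 in B against 74.2 CPM in D), Foxf1 (15.7 against 93.6) and Bmp4 (106 against 218).

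A few red cell genes were higher in D. Of 18 primitive erythroid genes outside the rule 3 rose and none fell: Alas2 (1.64), Nfe2 (1.17) and Smim1 (1.08). All 3 were lost without B3, at 1.12, 0.85 and 0.41 with adjusted p of 0.349, 0.179 and 0.334. Alas2 was lost too without B2 (0.183), D1 (0.0599), D2 (0.0583), D32 (0.0585) or D332 (0.0559), and Smim1 without B2 (0.0715). With the Hbb-bh1 limit at 5 UMIs Alas2 was at 1.49 and was not called (0.0605). Of 16 haem and iron genes 5 rose, among them Abcb10 (1.11), a mitochondrial transporter, the haem enzyme Alad (1.07), Alas2 and Fth1 (0.17), and Hmox1 (-1.47), which breaks haem down, and Ftl1 (-0.30) fell. Hmox1 was at 96.0, 132 and 130 CPM in B, 147 and 126 in C and 36.9 to 58.3 in D. Fth1 did not pass without B3 (0.121) or D332 (0.0601), nor Ftl1 without B2 (0.114).

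Among blood transcription factors 4 of 20 rose and 1 fell. Zfpm1, the partner of Gata1, rose by 0.65 (edgeR adjusted p = 6.57e-05), from 78.5 ± 7.88 CPM (SD, n = 3) in B to 123.6 ± 7.34 in D (n = 7). It was not called with at least 2 Gata2 UMIs required (0.29, adjusted p = 0.349). In other kept cells Zfpm1 was at 30.5 to 33.9 CPM in B and 35.0 to 47.6 in D. Nfe2 and Cbfa2t3 are given above, and the E protein gene Tcf3 rose by 0.29 but not without B1 (0.0768) or B2 (0.11). Mecom fell by 1.39 on the log2 scale and was lost without B1 (0.229) and without B3 (0.102). None of 12 surface and signalling genes rose, and Cd93, Was (-1.79) and Itgb3 (-1.29) fell.

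The signalling lists are set against 7.04% of all genes tested that were higher and 8.35% lower in D. In the Notch list 3 of 11 fell, the ligand Jag1 (-1.96), the target Hey1 (-2.02) and the DNA-binding effector Rbpj (-0.87), and Hey2 (1.4) rose. Without B2 Jag1 was not called (0.0591), and Hey2 was lost without B1 (0.0599), B2 (0.0949) or B3 (0.142). In the VEGF list 6 of 18 fell and 1 rose, the coreceptors Nrp2 (-1.19) and Nrp1 (0.52) in opposite directions. Nrp1 was lost without B1 (0.0612) or B2 (0.0885). Of those that fell, Flt4 (0.435), Shb (0.321), Foxc2 (0.202) and Mef2c (0.158) were lost without B3. Shb (0.0692) and Mef2c (0.0656) were lost without B1 as well. In other kept cells Nrp2 was at a median of 186 CPM in B and 49.4 in D. In the BMP list 3 of 17 rose (Bmp4, Smad6 and Id3) and 2 fell (Bmpr2 and Smad4), and each call was lost when 1 B column was left out. Bmp4 (0.0642), Smad6 (0.234), Smad4 (0.0765) and Bmpr2 (0.495) were lost without B3. Bmpr2 was lost without B2 too (0.106), and Id3 without B1 (0.0627) or B2 (0.0965). In the cell cycle list 1 of 20 rose (Mcm4) and 2 fell, Ccnd1 (-1.28) and Cdkn1c (-2.46), close to the 15.4% of all genes that passed. Mcm4 was lost without B2 (0.113), B3 (0.15) or D333 (0.0537). Of 10 definitive endoderm genes and 6 pluripotency genes none was called. In the mesenchyme list Col3a1 (-2.24), Sparc (-1.10) and Fn1 (-0.67) fell and none of 9 rose.

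**Figure D5:**
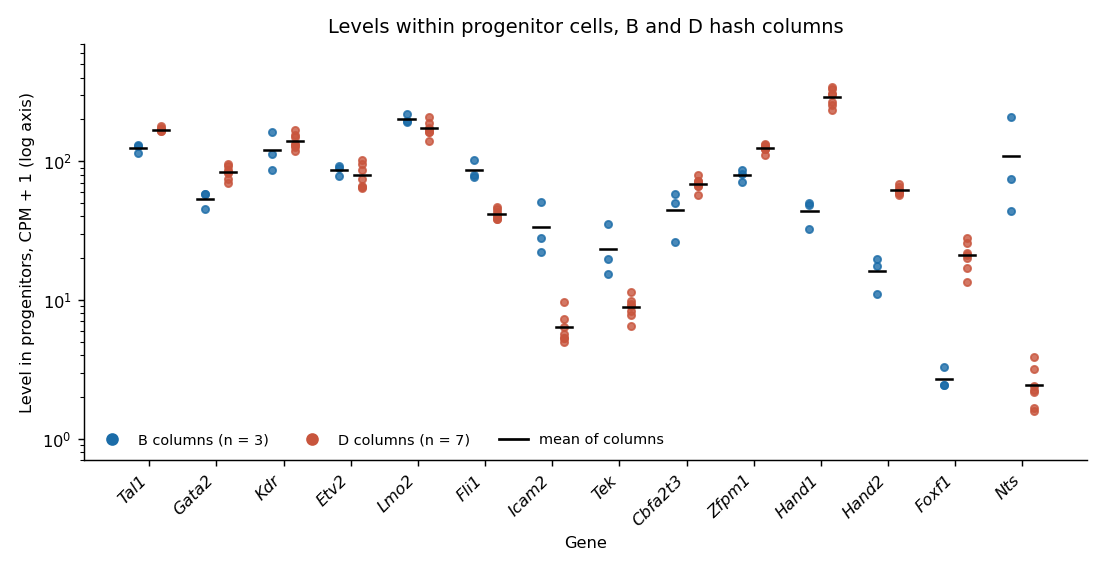
Levels within progenitors as CPM + 1 on a log axis, with 1 point for each of the 3 B (blue) and 7 D (red) hash columns and a bar at the mean. Hand1, Hand2 and Foxf1 are higher in all D columns than in all B columns, Fli1 and Nts are lower, and Kdr, Etv2 and Lmo2 overlap.

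By size of change alone, the 10 highest genes in D had no UMI in the 3 B sums, so their fold is a lower bound against a floor of 3 counts over those sums (1.10 CPM). Ctse was at least 3.26-fold higher, Fstl4 at least 3.11-fold, Car11 at least 2.48-fold and Gm15222 at least 2.40-fold, and the others were Rasgrp4, Stc1, Rnf208, Rubie, Gm26826 and 6230400D17Rik. With no B UMI, the 10 passed the expression filter through the D columns alone, and their calls are not read as a test. In other kept cells Stc1 (2.91 CPM in B and 0.884 in D), Gm15222 (5.92 and 5.35) and 6230400D17Rik (2.44 and 2.32) were lower in D. The rest of the 10 were higher in D there. None of the 10 was called without B3 (edgeR adjusted p 0.0601 to 0.174). Ctse, Stc1, Rnf208, Rubie and 6230400D17Rik were not called without B1 or B2 either (0.0508 to 0.0881), and Rubie was also lost when any 1 of the 5 columns named D3 and up was left out (0.0513 to 0.0545). The lowest was Nts, which encodes the peptide neurotensin: 208, 42.9 and 73.5 CPM in B1, B2 and B3, 0.662 and 0.553 in C and 0.591 to 2.91 in D (log2 -6.17, edgeR adjusted p = 3.00e-08). In other kept cells Nts was at 10.7 to 13.9 CPM in B and 0.856 to 2.16 in D. The B progenitors were thus the higher population in each B column. Among the next were 5330416C01Rik, Areg, Zfp984, Tmsb15b1, Ptchd1, Gm20707, Nkx6-1 (14.5 against 0.793 CPM) and Cav1, of which Cav1 was lost without B3 (0.212). These rest on few UMIs. Over the 3 B sums Ptchd1 and Gm20707 had 9 each, Tmsb15b1 10, Cav1 11, 5330416C01Rik 13, Zfp984 22, Nkx6-1 37 and Areg 46. Other kept cells were also lower in D than in B in each of these genes.

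A further rule was chosen after values were seen. It took genes called by edgeR, with at least 20 CPM in the higher letter, whose B and D values did not overlap (1018 genes). Those with the largest rise were Cfc1, a Nodal coreceptor (0.505 against 28.7 CPM), Asb4, Gm10260, Tpm3-rs7, Gm11361, Lhx1, a factor of early mesoderm (2.89 against 26), Gm10093, Gucy1a1, a guanylate cyclase subunit (4.10 against 33), Hmga1b and Eif3j2. Those with the largest fall after Nts were Rpl29 (1950 against 151 CPM), Igfbp3, Grb10 (69.7 against 9.14), Sft2d1, Hmga1, Icam2, Ckb, Nfic and Cdkn1c. Icam2 is a gene that the cell rule capped, so its call is not read as a test. Rpl29, Hmga1, Hmga1b, Gm10260, Gm11361, Gm10093, Tpm3-rs7 and Eif3j2 have near-identical copies elsewhere in the genome, and their values are uncertain. Lhx1 was not called without B3 (2.89 on the log2 scale, adjusted p = 0.0977). Other kept cells differed between B and D in the same direction in every gene that this further rule named. Cfc1, for example, was at 4.50 against 94.5 CPM there and Lhx1 at 3.66 against 30.1.

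The last comparison asked whether D against B differed in progenitors from D against B in all other kept cells, with the hash column held as a block. Of 13627 genes 1204 (8.84%) passed in edgeR's interaction test, 742 (5.45%) with the larger D minus B in progenitors and 462 (3.39%) with the smaller. The split depends on scaling: with DESeq2's size factors in edgeR it was 569 and 673, and with DESeq2 558 and 793. Without B3 513 genes passed. Other kept cells are a mixture whose makeup differs between the letters, as the endothelial-gated shares show, so unlike mixtures stand beside the progenitors.

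Runx1 had the largest interaction among core and blood factors, 1.80 (log2, edgeR adjusted p = 3.18e-06). Its level in other cells was 60.6, 53.0 and 63.0 CPM in B and 18.7 to 27 in D, while in progenitors it was 84.5, 61.5 and 44.7 in B and 62.6 to 81.0 in D. The letters were apart in the other cells and overlapped in the progenitors. Cbfa2t3 (1.61), Lyl1 (1.24), Sox7 (1.07), Lmo2 (0.80), Rhoj (0.73), Tcf12 (0.70) and Kdr (0.57) followed in the same direction. Runx1 and Cbfa2t3 passed under all 26 alternatives tried.

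Etv2 ran in the opposite direction, at -0.96 (edgeR adjusted p = 0.0141): in other cells it was at 14.5 to 21.2 CPM in B and 24.1 to 37.5 in D, and in progenitors the letters overlapped. Without B3 its interaction was not called, at -0.78 (0.237). Kdr and Rhoj were at the edge, with adjusted p of 0.0491 and 0.0368. They were not called with DESeq2's size factors (0.0816 and 0.0579), Kdr was lost without B1 (0.187), B2 (0.289), D2 (0.0523), D332 (0.0591) or D333 (0.0564), and Rhoj without B1 (0.124), B2 (0.112) or B3 (0.194). Of genes outside the lists Car4, a carbonic anhydrase, was at 44.9 CPM in B and 12.6 in D progenitors and at 25.9 and 89.9 in other cells, an interaction of -3.61.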

How the data were processed

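Embryoid body cells were read from 1 droplet library (10x Chromium v3), with lipid-anchored barcodes in 12 columns. The authors deposited UMI counts for 31053 genes and 20134 barcodes, written by Cell Ranger 3.1.0 per the file headers, and a table of hash barcode counts for the same barcodes with no normalization. The submitters' processing notes name Cell Ranger, HISAT2 2.0.5, Bowtie 1.0.0, MACS 1.4.2 and the build mm10 with no role. Normalized expression signal of parental B6 and D2 lines, deposited by the authors per gene, served only to pick strain-check genes: lowest line of 1 strain at least 8 times the highest of the other, plus 1.

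Levels are UMIs per 1000000 (CPM), from sums over cells per hash column, and a barcode occurred once. No doublet caller was run. Folds use log2(CPM + 1). edgeR 4.0.16 in R 4.3.3 (glmQLFit, TMM, filterByExpr, columns with at least 10 progenitors) gave the tests across genes, and DESeq2 1.42.0 an alternative. On simulated data edgeR recovered 94% of 2-fold and 100% of 4-fold changes within progenitors (11072 genes, 11 false calls). For the interaction it recovered 75% and 100% (13391 genes, 9 false calls). Changes were placed only in genes of at least 20 CPM, and every gene had the same fixed dispersion. The recovery therefore does not cover lower genes, or genes that varied more between the B columns. Shares were compared by exact permutation with scipy 1.17.1. P-values measure the spread between hash columns, which the labels do not tie to separate cultures in every case. Interval level was 95%.

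The cells, gene lists and tests were chosen with earlier results of these data known. Named genes are those of the rule and lists, the 20 highest and 10 lowest ratios, the 10 largest called changes per direction, and the 10 highest and lowest correlations with Gata1 and Kdr among genes in at least 20% of progenitors. A few genes that this rule names are not reported here. The alternatives were other cell limits, a stricter barcode ratio, normalization and filter changes, and leaving out each column. Those that rescale barcode counts or sum the D3 columns were added after seeing the data.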

Additional observations from a re-analysis of the deposited data

Results flagged for a closer look

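Among the 7 D columns 94 quantities were checked for a column far from the rest, and 14 had one. Chance alone gives about 1 in 20 for each quantity. Levels summed over the same cells are not independent, so the 14 are not separate departures. In 13 of the 14 the column was D1. Its Hbb-bh1-gated share was 3.36%, against 1.18 to 2.09% in the other D columns. Its other kept cells were high in blood genes: Tal1 26.1 CPM (others 13.4 to 17.7), Gata2 9.63, Lmo2 52.5, Gata1 13.5, Gfi1b 6.25, Itga2b 13.2, Klf1 4.83, Nfe2 7.62, Myb 5.04, Slc32a1 6.37 and Slc1a3 10.5, and low in Tpm3-rs7 at 224 CPM. D2 stood apart in Nrp2, at 74.8 CPM in other kept cells. No progenitor share or level in progenitors was flagged this way.

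The D against B difference in progenitors differed from that in other kept cells in 1204 genes by edgeR's interaction test. The core and blood factors outside the rule among them were Runx1 (1.80), Cbfa2t3 (1.61), Lyl1 (1.24), Sox7 (1.07), Lmo2 (0.80), Rhoj (0.73), Tcf12 (0.70), Kdr (0.57) and Etv2 (-0.96), all as log2 values. The largest fitted values were in genes with no UMI in the B progenitors, where the fitted size depends on a prior count and is no bound: Stc1 10.76, Isg15 10.14, Neat1 10.06, Dpysl4 9.72, Emilin2 9.45, Gm15222 9.36, Col6a3 9.30, Apln 9.08, 6230400D17Rik 9.01 and Glipr1 9.0. Without B3 all of these but Stc1 lost the call (edgeR adjusted p 0.0516 to 0.259). Col6a3, Apln and 6230400D17Rik also lost it without B1 or B2, and Glipr1 without B1. Among the D columns, Apln lost it without any 1 but D1, and Col6a3 without D331 or D332. Col6a3, Apln and Glipr1 were at 0.473, 0.777 and 0.287 CPM in D progenitors, under the B floor of 1.10 CPM. Their lack of B UMIs therefore shows no difference. The most negative were Actn2 -4.56, Slco2a1 -4.43, Ap1m2 -4.13, Dll1 -4.12, Gm6594 -3.97, Car4 -3.61, Gm26829 -3.40, Pou5f1 -3.16, Dppa2 -3.07 and Areg -2.81. Several of these rest on few UMIs, with 3 in the B progenitors for Actn2, Slco2a1 and Gm6594 and 4 for Ap1m2. Without B2 Gm26829 was at -0.42 (edgeR adjusted p = 0.929), Dll1 at -2.46 (0.274), Gm6594 at -2.87 (0.447), Ap1m2 at -3.54 (0.231) and Pou5f1 at -2.69 (0.194). Without B1 Dppa2 was at -1.35 (0.509), and Gm6594 (0.142), Ap1m2 (0.0921) and Areg (0.0603) were not called. Without B3 Slco2a1 turned to 3.14 (0.903), Areg was at -1.93 (0.279), and Pou5f1 (0.146) and Ap1m2 (0.0907) were not called. Actn2 was lost without any 1 B column (0.129 to 0.149) or D1, D31, D331 or D332 (0.0568 to 0.0606), and Slco2a1 without D331 (0.0517). Of the 29 genes followed here outside the rule, 11 lost the call without B1, 11 without B2 and 16 without B3.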

How the results depend on the processing

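The share difference kept its direction under all 23 alternatives. Its p rose above 0.05 when D31 with D32 and D331 to D333 were summed (10.3 points, p = 0.0571), when the 5 columns named D3 and up were summed (10.4 points, p = 0.1), and without B1 (10.2), B2 (10.2) or B3 (10.6 points, p = 0.0556 each), all exact permutation tests with those p the smallest allowed. Leaving out 1 column gave 9.82 to 10.8 points. The within-progenitor count of 1709 genes became 4299 with Tal1 of at least 1 UMI, 775 with at least 3, 324 with Gata2 of at least 2, 788 with the endothelial limit at 2 genes, 1031 without cells above 60000 UMIs, 739 with at least 20 progenitors per column and 956 with the D3 columns summed, and 923 to 1807 when 1 column was left out. The interaction count of 1204 became 354 with Gata2 of at least 2, 733 with the endothelial limit at 2 genes, 802 with a barcode ratio of 4, 718 without cells above 60000 UMIs, 571 with at least 20 progenitors, and 513 to 1242 when 1 column was left out. Of 85 followed genes outside the rule called within progenitors, 57 lost the call with Gata2 of at least 2, 39 with Tal1 of at least 3, 39 with the endothelial limit at 2 genes, 40 with at least 20 progenitors per column, 29 without cells above 60000 UMIs, 41 without B3, 24 without B2 and 16 without B1; the cause was not tested.

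Reversed values within progenitors were Gm15222 at -0.13 (Tal1 of at least 1), and Itgb3 at 0.19 and Ftl1 at 0.046 (Gata2 of at least 2). In the interaction they were Neat1 at -1.36, Dpysl4 at -0.50 and Gm15222 at -0.036 (Tal1 of at least 1), Slco2a1 at 3.14 without B3, Ap1m2 at 3.87 and Gm6594 at 4.05 (barcode ratio of 4), Gm6594 at 4.21 and Gm26829 at 6.69 (Gata2 of at least 2), Gm6594 at 4.20 (endothelial limit at 2), and Gm6594 at 4.25 and Gm26829 at 6.66 (at least 20 progenitors). No paired analysis was possible because hash columns of different letters share no replicate number that the labels tie to 1 culture or day. The B columns held 57 progenitors with 2717175 UMIs in all.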
